A study of Mus musculus with 16 samples.

Results

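The 9 genes Adcy1 to Adcy9 encode the membrane adenylyl cyclases, and their accessible chromatin was described in pancreatic islets of 8 inbred mouse strains. ATAC-seq peaks of 16 samples, 1 female and 1 male per strain, were merged where they overlapped or touched on the autosomes, which gave 347712 regions. Every region that overlapped the annotated body of 1 of the 9 genes, or the 3 kb upstream of its start, was taken, and this gave 157 regions. Of these, 14 had a peak in all 16 samples, against 40940 of all regions.

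The founder strains of the Diversity Outbred mice were sampled: 129S1_SvImJ (129), A_J (AJ), C57BL/6J (B6), NOD_ShiLtJ (NOD) and NZO_HlLtJ (NZO), which are classical laboratory strains, and CAST_EiJ (CAST), PWK_PhJ (PWK) and WSB_EiJ (WSB), which are wild-derived. No treatment, transgene or deletion was named for any group, the ages were not in the labels, and per the methods 50 islets went into a sample. The 2 samples of a strain differ in sex and are its only replicates. The p-values for strain, single strains and sex therefore measure the spread between the sexes of a strain, not between animals of 1 kind. Those for strain classes, and for CAST with PWK, come from strain means and measure the spread between strains. Islets hold several endocrine cell types with vessels and immune cells, and in bulk samples fewer cells of a type and less open chromatin per cell cannot be told apart.

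Adenylyl cyclases make cyclic AMP (cAMP) from ATP when a receptor activates the stimulatory G protein. In beta cells, incretin hormones such as GLP-1 and GIP raise cAMP through their receptors and thereby strengthen glucose-stimulated insulin secretion. The isoforms differ in regulation: Adcy1, Adcy3 and Adcy8 are stimulated by calcium and calmodulin, Adcy2, Adcy4 and Adcy7 respond to G protein beta-gamma subunits, Adcy5 and Adcy6 are inhibited by calcium, and Adcy9 is poorly sensitive to forskolin, the plant compound that activates the other isoforms. Variants at the human ADCY5 locus are associated with type 2 diabetes and glucose levels.

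Sequences of the regions on which the results below turn are given first, since the accessible regions are regulatory DNA. They are the mm10 reference, which is the genome of B6, so they show what lies at a position and not what the other strains carry there. Capitals mark matches on either strand to short motifs, searched for in 300-base windows. The motifs of general factors were TGANTCA for the AP-1 factors, GGGCGG for the GC box of promoters, CCGGAAG for the ETS family and AGGGGGC for the core of the CTCF motif. Those of islet and signalling factors were CAGATG for one form of the E-box, TAATTA for homeodomain proteins, TGTTTAC for forkhead proteins, AGATAA for the zinc fingers of the GATA family, GTTGCCAT for the RFX family and TGACGTCA for the cAMP response element. No motif contains another. The first 2 windows are neighbours within Adcy5 with different strain patterns. They are chr16:35255872-35256171 in the intron region with peaks in CAST and PWK alone and chr16:35253680-35253979 in the region before it. They are followed by the Adcy1 intron region with the smallest adjusted p for strain of all Adcy regions (chr11:7122078-7122377), the Adcy2 intron region with the smallest for that gene (chr13:68762991-68763290) and the Adcy2 intron region with peaks in CAST alone (chr13:68644880-68645179), all on the plus strand and centred on the summits.
Adcy5 CAST and PWK: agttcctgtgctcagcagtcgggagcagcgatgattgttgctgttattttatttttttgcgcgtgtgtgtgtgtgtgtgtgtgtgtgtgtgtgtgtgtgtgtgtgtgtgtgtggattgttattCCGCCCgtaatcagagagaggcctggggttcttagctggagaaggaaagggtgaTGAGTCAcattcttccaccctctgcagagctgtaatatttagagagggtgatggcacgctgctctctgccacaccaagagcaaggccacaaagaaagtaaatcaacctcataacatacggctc
Adcy5 region before: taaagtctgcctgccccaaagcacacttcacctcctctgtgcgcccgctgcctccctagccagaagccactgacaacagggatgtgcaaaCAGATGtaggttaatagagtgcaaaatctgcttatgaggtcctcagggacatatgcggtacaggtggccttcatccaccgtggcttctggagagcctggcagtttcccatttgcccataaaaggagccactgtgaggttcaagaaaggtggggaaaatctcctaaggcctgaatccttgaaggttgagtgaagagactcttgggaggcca
Adcy1 intron: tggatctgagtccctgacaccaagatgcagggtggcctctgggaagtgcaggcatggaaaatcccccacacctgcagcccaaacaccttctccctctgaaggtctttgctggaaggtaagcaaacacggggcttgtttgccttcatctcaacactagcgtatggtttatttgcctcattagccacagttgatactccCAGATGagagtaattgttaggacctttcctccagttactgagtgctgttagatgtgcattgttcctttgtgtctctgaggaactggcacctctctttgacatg
Adcy2 intron: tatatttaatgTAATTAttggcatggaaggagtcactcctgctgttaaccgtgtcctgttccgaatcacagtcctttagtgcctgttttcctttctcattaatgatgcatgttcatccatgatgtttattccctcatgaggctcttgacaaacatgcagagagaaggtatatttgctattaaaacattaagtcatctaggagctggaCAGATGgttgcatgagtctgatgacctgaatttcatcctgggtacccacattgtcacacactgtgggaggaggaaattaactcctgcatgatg
Adcy2 CAST: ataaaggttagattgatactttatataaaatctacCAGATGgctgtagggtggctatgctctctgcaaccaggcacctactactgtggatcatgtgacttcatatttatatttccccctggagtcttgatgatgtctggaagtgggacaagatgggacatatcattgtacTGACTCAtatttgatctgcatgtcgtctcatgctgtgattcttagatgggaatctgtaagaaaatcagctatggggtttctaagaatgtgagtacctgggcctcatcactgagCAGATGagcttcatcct

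The promoters shown next reach from 250 bases before to 50 bases after a transcript start in the RefSeq table of the same assembly (GRCm38, or mm10), on the strand of the gene. They are those of Adcy1 (chr11:7063183-7063482, plus strand), whose start region had no peak in PWK, of Adcy9 (chr16:4420449-4420748, minus strand), whose start region had the highest signal of the family and was low in AJ, and of Adcy5 (chr16:35154614-35154913, plus strand), whose start region was rarely called. The table held 10 promoters for 7 of the 9 genes, all but Adcy6 and Adcy8.
Adcy1 promoter: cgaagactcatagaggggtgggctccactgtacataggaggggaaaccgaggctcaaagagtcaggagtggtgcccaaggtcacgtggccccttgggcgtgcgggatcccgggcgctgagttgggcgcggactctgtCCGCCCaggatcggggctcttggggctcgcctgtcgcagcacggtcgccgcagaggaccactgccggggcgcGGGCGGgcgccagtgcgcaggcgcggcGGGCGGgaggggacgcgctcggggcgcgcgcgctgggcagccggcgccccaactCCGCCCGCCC
Adcy9 promoter: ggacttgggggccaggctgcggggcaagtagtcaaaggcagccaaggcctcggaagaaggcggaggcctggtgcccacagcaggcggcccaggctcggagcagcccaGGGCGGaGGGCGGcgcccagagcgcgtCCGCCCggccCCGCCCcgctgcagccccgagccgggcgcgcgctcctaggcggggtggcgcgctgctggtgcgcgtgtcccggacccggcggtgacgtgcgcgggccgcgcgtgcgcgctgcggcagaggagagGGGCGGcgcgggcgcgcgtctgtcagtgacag
Adcy5 promoter: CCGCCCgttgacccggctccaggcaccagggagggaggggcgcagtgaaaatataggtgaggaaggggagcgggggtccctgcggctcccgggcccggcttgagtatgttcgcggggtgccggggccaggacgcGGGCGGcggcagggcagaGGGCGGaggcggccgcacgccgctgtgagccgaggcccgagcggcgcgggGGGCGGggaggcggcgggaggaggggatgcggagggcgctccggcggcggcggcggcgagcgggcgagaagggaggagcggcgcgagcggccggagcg

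The Adcy1 and Adcy9 promoters held 5 GC boxes each and the Adcy5 promoter 4, and 35.7% of 32851 RefSeq promoters held at least 1. The Adcy5 window with peaks in CAST and PWK held 1 match to AP-1 and 1 GC box, where 18.6% and 6.45% of the windows of all regions held these motifs. Its neighbour held a CAGATG E-box and neither of the other motifs. Of the 157 windows of the family, 35 held AP-1, 50 held CAGATG (26.4% of all windows) and 4 held the cAMP response element, the motif that CREB binds (0.506% of all windows). A match is a string of letters and says nothing of which factor was bound.

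The adenylyl cyclase regions had a median width of 253 bases, against 200 over all regions. A peak in all 16 samples was found for 8.92% of them and for 11.8% of all regions, and a peak in a single sample for 31.2% and 46.4%. They were spread unevenly over the genes. Adcy2 (chr13:68620043-68999541, minus strand) held 41 regions and Adcy9 (chr16:4287529-4420498, minus strand) 38, which was 10.7 and 27.9 per 100 kb. Adcy1 (chr11:7063489-7178506) held 21, Adcy8 (chr15:64697084-64922296, minus strand) 20, Adcy5 (chr16:35154877-35305738) 14, and Adcy3 (chr12:4133103-4213525) and Adcy7 (chr8:88272403-88329962) 10 each. Adcy4 (chr14:55769057-55784095, minus strand) held 2 and Adcy6 (chr15:98589973-98610076, minus strand) 1, and both are short genes. Of the 14 regions common to all samples, Adcy2 had 5, Adcy8 3, Adcy9 2, and Adcy1, Adcy3, Adcy4 and Adcy7 1 each, while Adcy5 and Adcy6 had none.

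The lists differed in size, the AJ male having the shortest list (77887 autosomal peaks) and the WSB female the longest (167051), and these samples also had the fewest (35) and the most (102) adenylyl cyclase regions with a peak. The study gives its depth as a mean over samples, and read totals per sample, which the lists do not hold, were not used here. Signal was therefore scaled: the deposited summit signal of a peak was divided by the sample's median summit signal over the 40940 regions common to all samples, a median that lay between 32 in the PWK male and 136 in the CAST male. A scaled signal of 1 is that of the typical shared region, and 0 stands for no listed peak, which does not say that the chromatin was closed. Of the 12 islet marker genes, 10 had a peak in all 16 samples (summed scaled signal of the list 23.1 to 33.5). The hormone genes Sst and Ppy did not: Sst had a peak in the PWK female alone (0.097), and Ppy in the CAST female (0.08) and the NZO male (0.25) alone. The NZO male stood apart, with a summed signal at 14 leukocyte genes of 3.31 against at most 0.604 in the other 15 samples, although the T cell genes Cd3e, Cd3g, Cd4 and Cd8a had no peak in any sample. Its sum was also the highest at 8 acinar genes (1.75, the next sample 1.17, with Cel and Pnlip at 0 throughout). The same held at 6 duct genes (4.02, the next 2.43), while its sum at the islet genes was the lowest. Single genes went the other way. Cd79a, Cpa1 and Ptf1a had no peak in the NZO male, although Ptf1a had one in 14 samples. Prss2 (0.25), Cftr (0.65) and Spp1 (0.64) were not highest in it. Of the islet genes, Ins1 (1.45), Ins2 (0.38), Gcg (1.85) and Pax6 (5.49) were lowest in the NZO male. Mafa was highest in it (3.67, the 129 female 2.83), and Nkx6-1 (3.85) and Pdx1 (2.16) were above most other samples. The sum at 10 endothelial genes was 7.93 in it and 5.38 to 9.10 over all samples, with Tie1, Emcn and Plvap at 0 throughout. Most of that sum came from Esam (6.05 in the NZO male). Of the other endothelial genes, Pecam1 had a peak in the NZO male alone (0.29), and Cdh5 (0.60) and Egfl7 (0.49) were highest in it. Kdr (0.24) and Vwf (0.25) were not highest in it, and Tek had no peak there.

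**Figure D1:**
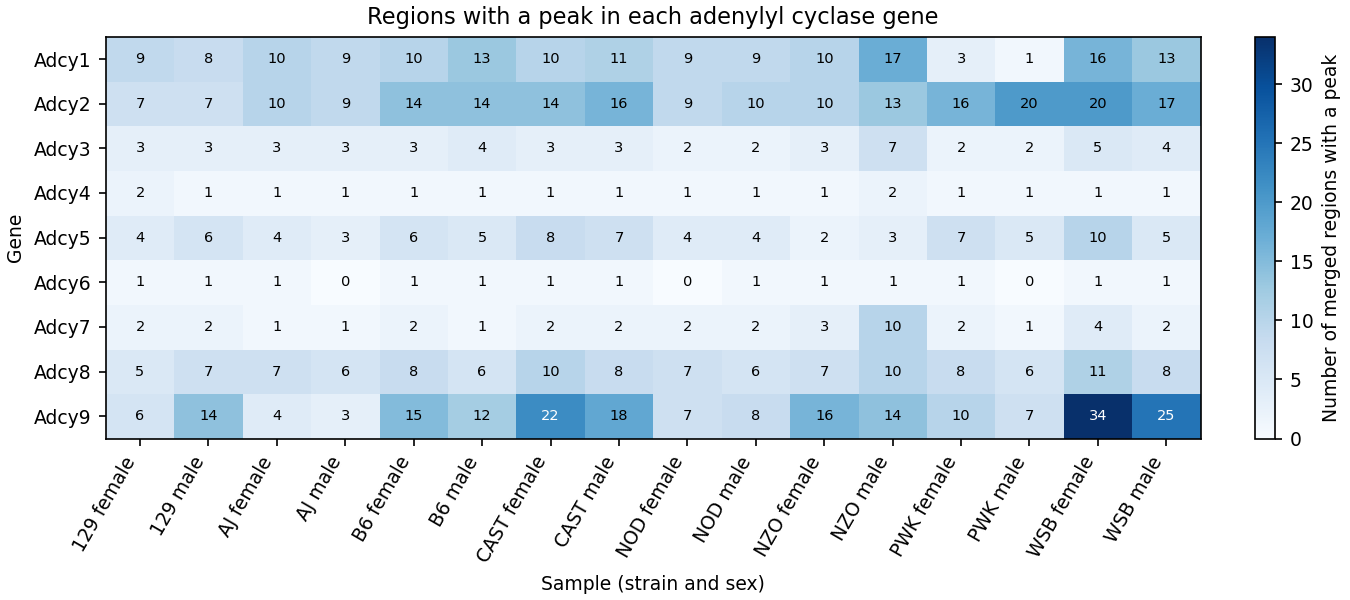
Number of regions with a peak in each adenylyl cyclase gene (rows) and sample (columns, strain and sex), with the count in each cell and darker blue for more regions. Adcy9 had its fewest regions in the AJ male (3) and its most in the WSB female (34), Adcy1 fell to 3 and 1 in the PWK samples, and Adcy7 reached 10 in the NZO male.

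The NZO male alone held 20 of the 49 adenylyl cyclase regions that had a peak in a single sample, and it held 20.5% of such regions over the genome. Of the 10 Adcy7 regions, 5 were found in the NZO male alone, and of the 10 Adcy3 regions 4. The others were 5 of the 41 Adcy2 regions, 3 of 21 in Adcy1, 2 of 20 in Adcy8 and 1 of 38 in Adcy9. Without that sample there were 137 regions, 5 of them in Adcy7 and 6 in Adcy3. Adcy7 is an isoform known from immune cells, and the leukocyte sum of this sample is given above. The part of other cell types in these regions was not tested.

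To determine whether accessibility of these genes depended on strain, limma was fitted with strain and sex to the log2 signal of all 40940 shared regions, centred on the median of each sample. Of the 14 adenylyl cyclase regions tested, 6 differed among strains at an adjusted p under 0.05 (moderated F test with Benjamini-Hochberg adjustment): 1 in Adcy1, 2 in Adcy2, 1 in Adcy8 and 2 in Adcy9. Over all regions 35.7% were called, so the share in the family was near the background. The difference between the highest and the lowest strain had a median of 1.01 on the log2 scale in the 14 regions and of 1.11 over all regions.

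**Figure D2:**
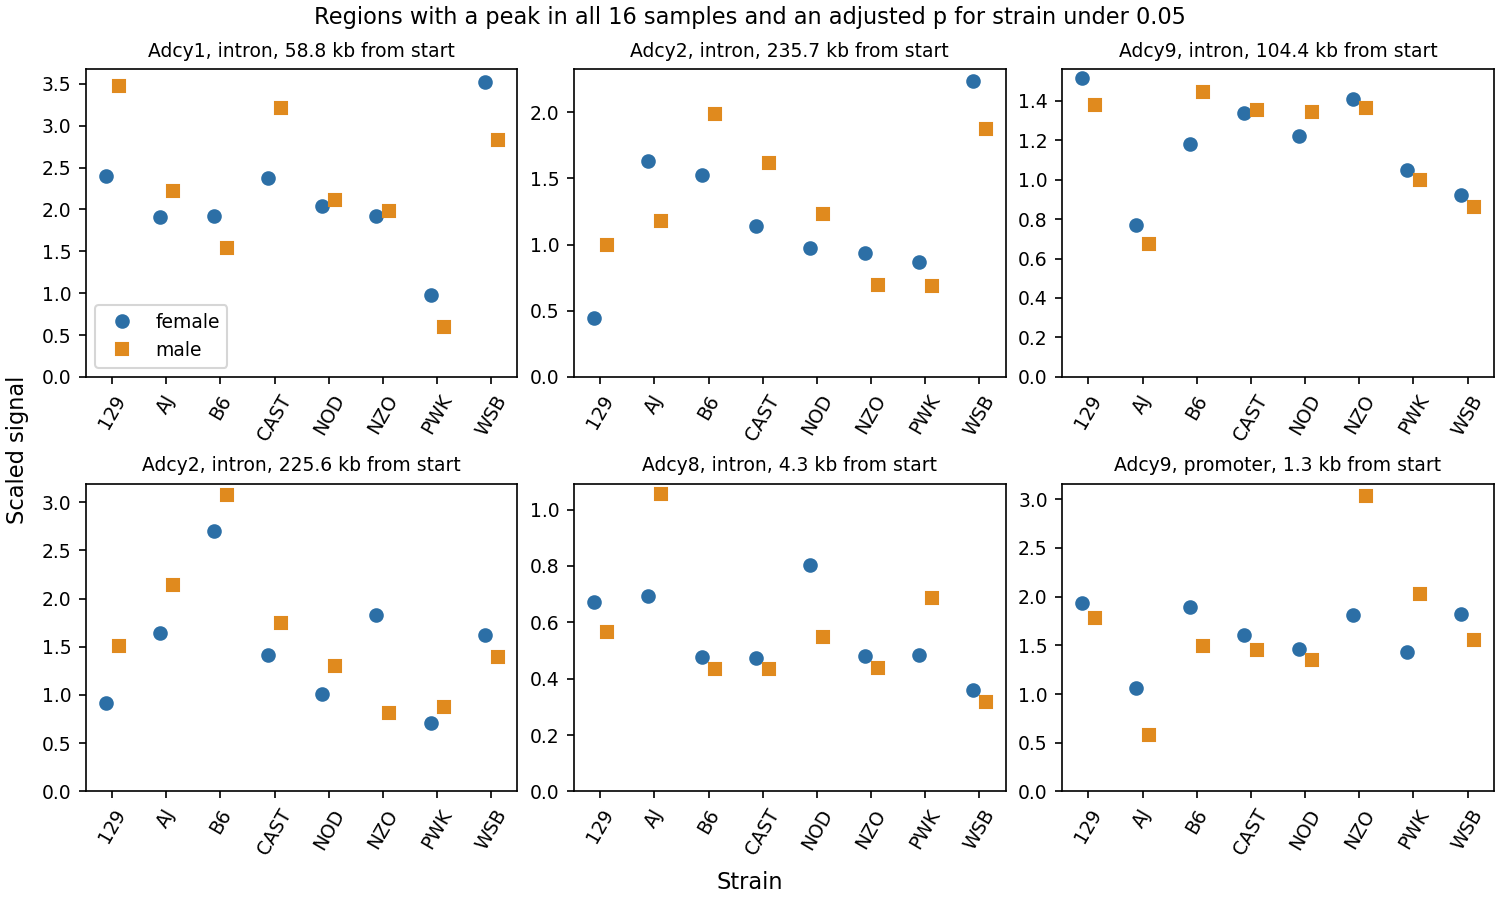
Scaled signal (y axis, 1 is the median shared region) of the 6 adenylyl cyclase regions called for strain, by strain (x axis), with circles for females and squares for males. Each panel starts at 0 and has its own scale, and its title gives the distance of the region's middle from the start of the gene. Both PWK samples were lowest in Adcy1, and both AJ samples lowest in the 2 Adcy9 regions.

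Among the calcium-stimulated cyclases, Adcy1, known for its part in synaptic plasticity, had the smallest adjusted p of the family. Its intron region at chr11:7121680-7122952 had a scaled signal of 0.98 in the PWK female and 0.59 in the PWK male, and of 1.54, 2.16 and 3.53 as the lowest, median and highest of the 14 other samples. Both PWK samples lay below all others. The strain means were 3.18 ± 0.49 in WSB (SD, n = 2, as for all strain means), 2.94 ± 0.76 in 129, 2.80 ± 0.59 in CAST, 2.08 ± 0.045 in NOD, 2.06 ± 0.22 in AJ, 1.95 ± 0.040 in NZO, 1.73 ± 0.27 in B6 and 0.79 ± 0.28 in PWK. In that order only CAST and NOD, NZO and B6, and B6 and PWK were neighbours whose samples did not overlap. The difference between the highest and the lowest strain was 2.02 on the log2 scale (adjusted p = 0.00381), and the adjusted p was between 0.000808 and 0.0322 in 27 alternatives, with the call kept in 27 of 27. PWK was lower than the 7 other strains by a log2 difference of -1.58 (SE 0.22, adjusted p = 0.000615, 9.85e-05 to 0.0322 over the alternatives).

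The lower signal in PWK ran along the whole Adcy1 gene. Of the 7 Adcy1 regions that had a peak in all 14 samples of the other strains, 4 had none in either PWK sample, which is 57.1%, against 1.83% of such regions over the genome. The pattern of a peak in all samples but those of PWK described 0.226% of all regions. The 4 regions were the promoter (chr11:7062746-7065214), 2 intron regions (chr11:7113932-7114780 and chr11:7142748-7143136) and a region close to an internal transcript start (chr11:7161616-7162002). At the promoter, whose sequence is given above, the 14 other samples lay between 0.12 in the B6 male and 0.71 in the AJ male. The PWK female had a peak in 3 Adcy1 regions and the PWK male in 1, and no other adenylyl cyclase gene had a region that was called in all 14 other samples and missing in both PWK samples.

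**Figure D3:**
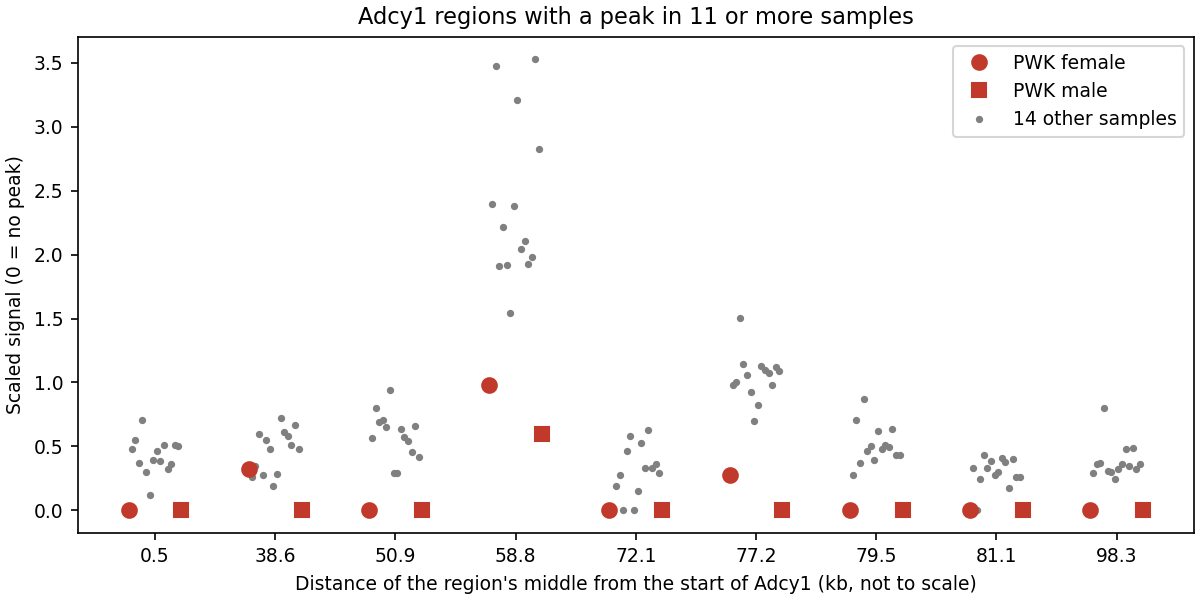
Scaled signal (y axis, 0 is no peak) of the Adcy1 regions with a peak in 11 or more samples, ordered by distance from the start of the gene (x axis, kb, not to scale), with large red circles and squares for the PWK female and male and small grey points for the 14 other samples. The PWK samples reached 0.98 and 0.59 in the region 58.8 kb from the start and were at 0 in most of the others.

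The same direction was seen around Adcy1. In the 1 Mb before the gene, 35 of 35 regions called in the 14 other samples had a lower signal in PWK (median log2 difference -1.10), and 3 of them (8.57%) had no peak in PWK. In the 1 Mb after it, 3 of 3 were lower, 1 of them (33.3%) with no peak in PWK. A region with no peak in PWK counts as lower and entered the medians at a signal of 0. Over all regions 49.9% were lower, with a median of 0.00. On chromosome 11 as a whole, the median difference of PWK from the other strains was -0.49 on the log2 scale over 1146 shared regions, against 0.01 to 0.09 on the 6 other chromosomes that carry an adenylyl cyclase gene. Samples of other strains were also shifted on this chromosome, by -0.24 (AJ female) to 0.55 (NZO male), and the PWK samples by -0.38 and -0.46. Of 1710 bins of 1 Mb, the 20 with the lowest PWK difference all lay on chromosome 11. The lowest was the bin at 7 Mb, where Adcy1 lies (median -3.15). Chromosome 11 held 2.69% of the peaks of the PWK female and 1.62% of those of the PWK male, against 2.53% to 4.64% in the 14 other samples. With each chromosome centred on its own median, the Adcy1 intron region stayed lower in PWK by a log2 difference of -1.11 (adjusted p = 0.0153). The part of this chromosome-wide difference in the Adcy1 result was not tested beyond the chromosome centring.

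Adcy8, which couples calcium entry to cAMP in beta cells, was called in 1 of its 3 shared regions. The intron region at chr15:64917904-64918167, which also overlaps the predicted gene Gm21798, had 0.69 in the AJ female and 1.05 in the AJ male, and 0.32, 0.48 and 0.80 as the lowest, median and highest of the others. The AJ female was within the range of the other strains. The range among strains was 1.31 on the log2 scale (adjusted p = 0.0398), and 13 of 26 alternatives kept the call, with an adjusted p of up to 0.129. The AJ difference of 0.77 (SE 0.22, adjusted p = 0.0491) was kept in 8 of 26. The promoter region of Adcy8 (chr15:64920971-64923599) lay between 0.63 in the PWK female and 1.25 in the NZO male, and it was not called (adjusted p = 0.141).

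Adcy3, the cyclase of olfactory neurons and primary cilia, had its only shared region at the promoter (chr12:4132941-4133946). The PWK samples had 0.53 and 0.44, below the 14 others at 0.60, 0.89 and 1.23 (lowest, median, highest). The strain test was not passed (range 1.12, adjusted p = 0.0825), and the PWK contrast was (log2 difference -0.78, SE 0.23, adjusted p = 0.0403), in the fit as given and in 12 of 25 alternatives. WSB was next above PWK, with 0.61 and 0.64.

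The cyclases that respond to beta-gamma subunits were led by Adcy2, the largest gene of the family. Its intron region at chr13:68762552-68765228 had the highest signal in WSB (2.24 and 1.88) and the lowest in 129 (0.45 and 1.00), PWK (0.87 and 0.69) and NZO (0.94 and 0.69). The WSB female lay above all other samples, and the 129 female below them. The range among strains was 1.59 (adjusted p = 0.0212), kept in 24 of 27 alternatives. Without the WSB female the adjusted p was 0.0673, and no single strain was called against the others at this region in the fit as given, while WSB was in 11 of 27 alternatives and 129 in 2 of 27.

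A second Adcy2 intron region, at chr13:68773539-68774444, was highest in B6, with 2.70 in the female and 3.07 in the male, and 0.71, 1.41 and 2.15 as the lowest, median and highest of the others. B6 lay above all other samples, and PWK was at 0.71 and 0.88, where the NZO male at 0.82 and the 129 female at 0.91 were close. The range among strains was 1.85 (adjusted p = 0.0269, kept in 18 of 27 alternatives, at most 0.108). B6 differed from the others by 1.16 (SE 0.27, adjusted p = 0.0359, kept in 12 of 27) and PWK by -0.96 (SE 0.27, adjusted p = 0.0355, kept in 17 of 27).

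The remaining shared regions of these isoforms were not called for strain. The Adcy2 promoter (chr13:68997865-68999835), which overlaps Gm35161 and Gm48593, had the largest adjusted p of the 14 regions (range 0.54, adjusted p = 0.889), with 0.57 in the NZO female and 1.64 in the NZO male at its ends. Adcy4, an isoform of endothelial and other peripheral tissues, had a region at its start (chr14:55783200-55783399) in the 129 female (0.16) and the NZO male (0.18) alone. Its other region at chr14:55781139-55781690, close to an internal start, was in all 16 samples at 0.68 to 1.47 (range among strains 0.54, adjusted p = 0.691). Adcy7 had a start region (chr8:88272120-88272796) in 12 samples, in neither AJ sample and not in the B6 or the PWK male, and the highest was the NZO male at 0.69. Its region at chr8:88325355-88325978 had a peak in all samples between 0.19 in the PWK male and 0.68 in the PWK female (adjusted p = 0.761).

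**Figure D4:**
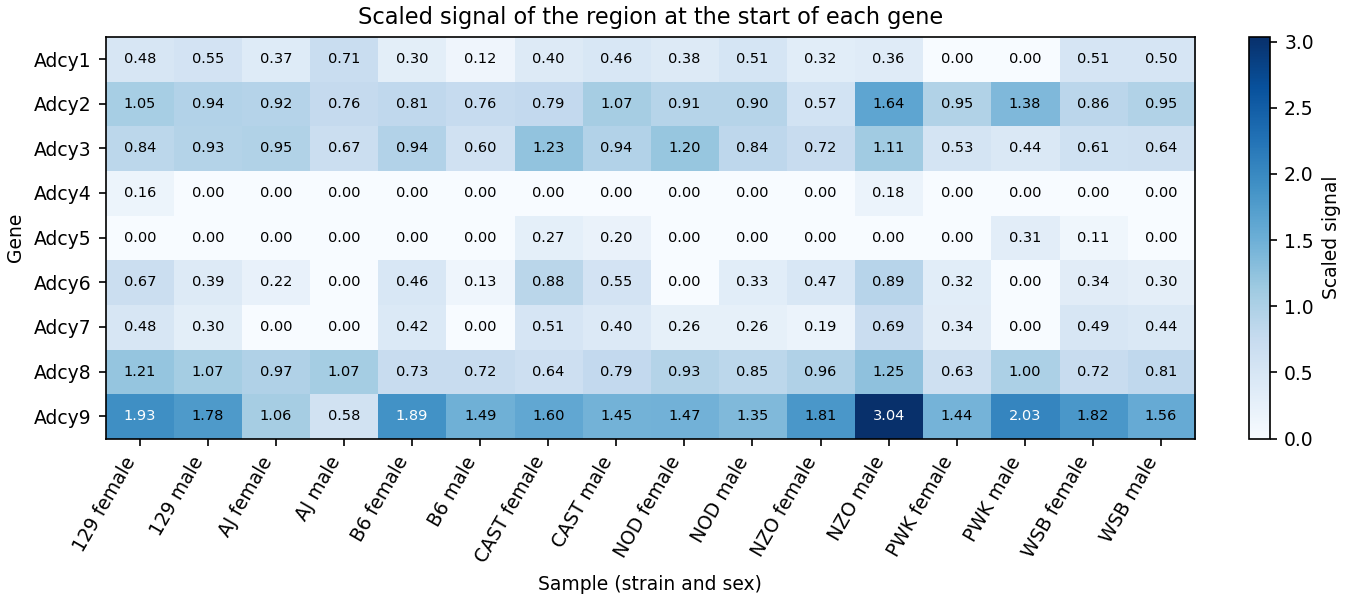
Scaled signal of the region that holds or lies nearest the start of each adenylyl cyclase gene (rows) in each sample (columns), with the value in each cell, 0.00 where no peak was listed and darker blue for higher signal. Adcy9 had the highest value in 15 of the 16 samples, Adcy1 was at 0 in both PWK samples, and the start regions of Adcy4 and Adcy5 were at 0 in most samples.

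Of the cyclases that calcium inhibits, Adcy5 had 14 regions and no region in all 16 samples. The intron region at chr16:35255720-35256199, whose sequence heads the first set above, was taken as the one that the study displays for CAST and PWK. The text of the study gives no coordinates for it, and the region was picked by its peaks in CAST and PWK alone. Its pattern is therefore a description, and the lack of peaks in other strains follows from that choice. The region had 0.69 in the CAST female, 0.47 in the CAST male, 0.61 in the PWK female and 0.41 in the PWK male, and no peak in the 12 other samples. It was reproducible between the sexes (IDR of 0.05) in CAST and in PWK. A peak in both samples of CAST and of PWK and in no other was the pattern of 0.294% of all regions, and of no other adenylyl cyclase region. With a stricter peak threshold, or with equal numbers of peaks per list, 3 of the 4 samples kept it.

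The region 1390 bases before it, chr16:35252800-35254329, which overlaps an annotated exon, had a nearly opposite distribution. It had a peak in both samples of 129 (0.53 and 0.30), AJ (0.40 and 0.56), B6 (0.71 and 0.14) and NOD (0.52 and 0.50), and of the strains with the CAST and PWK region only the CAST female had one, at 0.11. NZO and WSB, in which the CAST and PWK region was also missing, had no peak here. It was reproducible between sexes in NOD alone, and 2 of its 9 samples kept it under the stricter threshold.

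Further upstream in the gene, the region at chr16:35205652-35206130 had a peak in 15 samples. It was low in CAST (0.24 and 0.21) and PWK (0.21 in the female and no peak in the male) and at 0.34 to 0.99 in the 12 other samples. The region was chosen after these values were seen, and the share of all regions with such a separation was not counted. It was not among the shared regions. In a limma fit to the 66895 regions with a peak in at least 12 samples, it was not called for strain (adjusted p = 0.055, 18.3% of all regions called). Nor was it called by limma for CAST and PWK against the others (adjusted p = 0.0649, 825 regions called). PWK against the 7 others was called lower (log2 difference -2.68, adjusted p = 0.00979, 4351 regions called lower), with the PWK male entered at a signal of 0. The region at chr16:35223924-35224355 had a peak in all samples but the NZO male and was highest in CAST, at 1.01 and 0.76. It was not called for strain (adjusted p = 0.265) in the same limma fit, where the NZO male entered at a signal of 0. At the start of Adcy5, the region chr16:35154000-35155125 had a peak in the CAST female (0.27), the CAST male (0.20), the PWK male (0.31) and the WSB female (0.11). A region 1.5 kb inside the gene (chr16:35156408-35156641) had a peak in 7 samples, at 0.40 to 0.75, among them both CAST and both PWK samples.

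**Figure D5:**
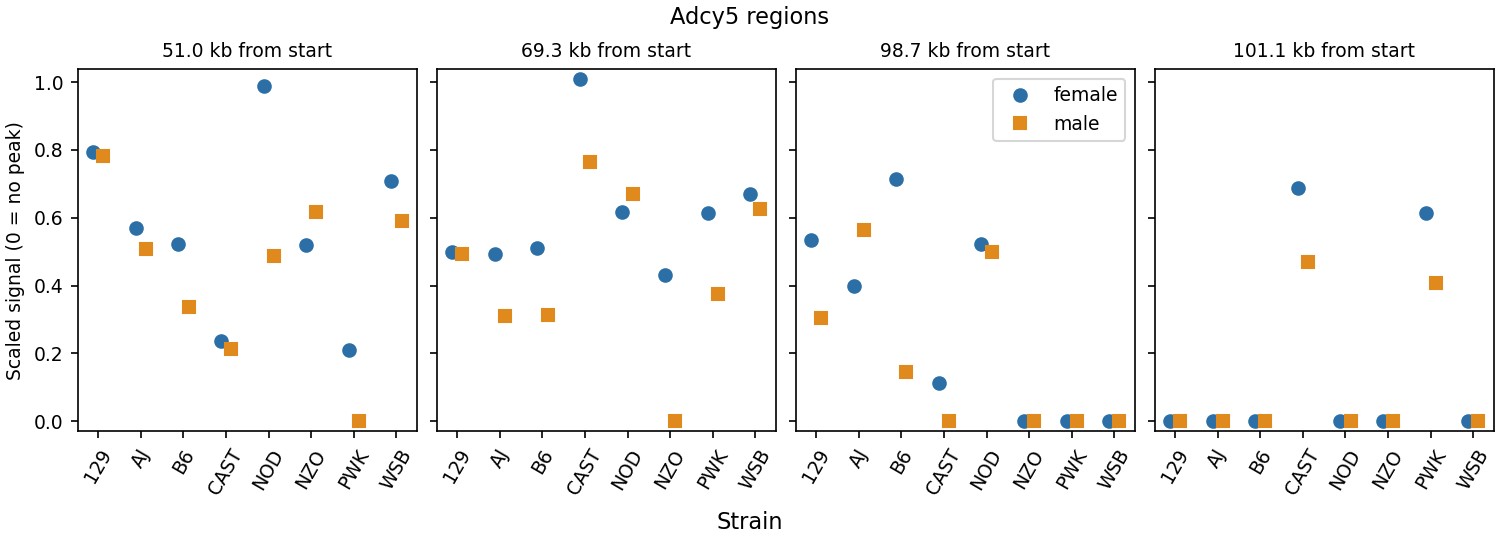
Scaled signal (y axis, 0 is no peak) of 4 Adcy5 regions by strain (x axis), with circles for females and squares for males and each panel titled by the distance of the region's middle from the start of the gene. The last panel, 101.1 kb from the start, has values in CAST and PWK alone, the third has values mainly in 129, AJ, B6 and NOD, and in the first CAST and PWK are lowest.

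Adcy6, the close relative of Adcy5, had a single region over its start (chr15:98608902-98610399). It had a peak in 13 samples, at 0.13 to 0.89, and none in the AJ male, the NOD female or the PWK male. It was not called for strain in the fit to regions with a peak in at least 12 samples (adjusted p = 0.392), where the 3 samples without a peak entered at 0.

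Adcy9 had the strongest start region of the family, and both of its shared regions were called for strain. At the promoter (chr16:4417321-4421131), AJ had 1.06 in the female and 0.58 in the male, and the 14 others had 1.35, 1.69 and 3.04 as lowest, median and highest. Both AJ samples lay below all others, and the NZO male was the highest. The range among strains was 1.56 (adjusted p = 0.0471, kept in 12 of 26 alternatives, up to 0.499 with the mean signal of the peaks). AJ was lower by -1.12 (SE 0.24, adjusted p = 0.0222, kept in 23 of 26). At the intron region chr16:4315742-4316501, AJ had 0.77 and 0.67 and the others 0.86, 1.34 and 1.52, so that AJ was again below all others, followed by WSB with 0.92 and 0.86. The range was 0.99 (adjusted p = 0.0227, kept in 20 of 27, up to 0.102) and the AJ difference -0.75 (SE 0.17, adjusted p = 0.0233, kept in 25 of 27).

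The Adcy9 promoter was the only promoter region called for strain among those shared by all samples, and its pattern over the 16 samples was compared with that of the promoters of other genes. The most similar were those of Myl6b (chr10:128498266-128499624, Pearson's r = 0.923) and Sbk1 (chr7:126271554-126274399, r = 0.907), as a description over samples that share strains.

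Each strain was also set against the 7 others at the 14 regions. The 7 calls were those given above, 3 for PWK, all lower (11.1% of all regions were called for PWK and 5.75% were called lower), 3 for AJ, of which 2 were lower (6.81% of all regions), and 1 for B6, higher (3.13%). No adenylyl cyclase region was called by limma for CAST, although 20.6% of all regions were, and none for 129 (3.09%), NOD (3.02%), NZO (5.19%) or WSB (5.81%). At an unadjusted p under 0.05 there were 3 for CAST, 4 for 129, 0 for NOD, 2 for NZO and 4 for WSB. Neither the wild-derived against the classical strains (0 of 14 regions, 0.0342% of all) nor CAST and PWK against the others (0 of 14, 0.86% of all) gave a call in limma, and none had an unadjusted p under 0.05. No difference between females and males was called by limma at the 14 regions (0 of 14, 0% of all regions, of which 1621 had an unadjusted p under 0.05). The smallest unadjusted p, 0.0157, belonged to the Adcy8 intron region at chr15:64764676-64764999, lower in females by a log2 difference of -0.42, and it was the 1 region under 0.05.

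Some regions had a peak in both sexes of a strain and in no sample of another strain. The strongest were in Adcy2. The intron region at chr13:68644591-68645366, shown above, had 0.89 in the CAST female and 0.95 in the CAST male, and 1.8% of all regions had a peak in CAST alone. The region at chr13:68730103-68730352, which overlaps an annotated exon of Adcy2, had 0.70 in the B6 female and 1.01 in the B6 male. Both were reproducible between the sexes and kept under the stricter threshold. Another B6 region lay in an Adcy1 intron (chr11:7096035-7096338, 0.25 and 0.57), so that 2 of 157 regions had a peak in B6 alone, where 0.113% of all regions did. WSB alone had 6 regions (1.01% of all regions), 4 of them in Adcy9, the strongest at chr16:4313361-4313458 with 0.23 and 0.20, and the WSB female has the longest list. An Adcy9 intron region at chr16:4339200-4339599 was at 0.77 and 0.99 in CAST and otherwise found only in the WSB female, at 0.13. The 3 regions with a peak in CAST and WSB alone (1.91% of the 157, and 0.335% of all regions) lay in Adcy2, Adcy3 and Adcy9, at up to 0.19. A region in PWK alone (chr13:68894200-68894599, 0.11 and 0.12) consisted of repeats, and 0.974% of all regions had that pattern. In Adcy7, 1 region had a peak in NZO alone, as 0.322% of all regions did.

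The other genes of the cAMP pathway were given by counts. For 57 genes upstream and downstream of the cyclases, 1411 regions were found, of which 218 had a peak in all samples, and 88 of these (40.4%) were called for strain, near the 35.7% of all regions. Among G protein alpha subunits 26 of 39 were called, among receptors 5 of 13, among phosphodiesterases, which break down cAMP, 40 of 111, among protein kinase A subunits and anchors 11 of 31, among the Epac exchange factors 3 of 7, and among the CREB family 3 of 16, and the 1 region of the soluble cyclase Adcy10 was not called. None of the 218 was called for sex or for strain class. The smallest adjusted p was that of an intron region of Rapgef4 (Epac2, which links cAMP to exocytosis) at chr2:72091781-72092825, which ranged from 0.39 ± 0.046 in NOD to 2.84 ± 0.044 in B6 (range 2.84 on the log2 scale, adjusted p = 1.02e-05). PWK was called higher at 18 and lower at 10 of the 218 regions, where 11.1% of all regions were called in either direction. AJ was called higher at 9 and lower at 15 of the 218 regions, where 6.81% of all regions were called in either direction. Among phosphodiesterases, AJ was called higher at 7 regions and lower at 3. The 15 lower regions in AJ included single regions of the GIP receptor gene Gipr (-0.75, adjusted p = 0.0467), the glucagon receptor gene Gcgr (-1.05, adjusted p = 0.0294) and Gnas, which encodes the stimulatory subunit (-1.55, adjusted p = 0.0188). These 3 were chosen after their values were seen.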

How the data were processed

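ATAC-seq was done on islets of 8 strains and both sexes. The authors, per their methods, trimmed reads with cutadapt (2.0), aligned them to mm10 with Bowtie2 (2.3.4.1), removed duplicates with Picard (2.9.2) and ran MOSAiCS on each sample (false discovery rate 0.05), and no shift of read ends was given in the sources used here. The deposited sample lists hold the signal at a peak's summit, which is not scaled to depth, a mean signal and a −log10 p-value. The deposited strain lists pool the sexes and carry a −log10 IDR, used at 0.05. The lists used here come from alignments of all strains to the B6 genome. The authors also aligned to individualized genomes to examine reference bias, and those alignments were not analysed here.

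Regions were annotated with GENCODE M21. Of the peaks in a region, the highest summit was used. Signal was fitted as log2(signal + 1), centred per sample, with limma (3.58.1, R 4.3.3), strain and sex in the model and all groups sharing 1 estimate of spread, and a pseudocount understates changes of low signals. The methods of the study fitted read counts, and the lists hold signal, so limma was used in place of a count test. For strain classes and the pair CAST and PWK, limma was fitted to the means of the 8 strains, and single strains against the 7 others in the model of strain and sex. The script was tested on simulated data. The members and gene lists were chosen with earlier results of these data known. Named were the start region of each gene, up to 3 regions with the smallest adjusted p for strain, up to 3 found in 1 or more strains alone with the highest signal, and the Adcy5 intron region taken as that of the study. Others were named after their values were seen, namely the regions with a low signal in PWK or peaks in many samples, 1 Adcy9 region of CAST and the pathway genes named as such. Alternatives changed the pseudocount (5), the centring, the measure, the peak threshold, the number of peaks per list (77887), the merging gap (100 bases), the samples needed (12) and the samples included.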

Additional observations from a re-analysis of the deposited data

Results flagged for a closer look

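In 30 groups of samples tested (the scaled signal of each of the 14 shared regions, and the number of regions with a peak, in the classical and in the wild-derived strains), 3 had a sample far from the rest by Dixon's ratio, and chance alone gives about 1 in 20. In the Adcy1 intron region at chr11:7121680-7122952, the 129 male was at 3.478 and the 9 other classical samples between 1.542 and 2.397. In the Adcy2 promoter region at chr13:68997865-68999835, the NZO male was at 1.636 and the others between 0.5679 and 1.052. In the Adcy2 region at chr13:69002139-69003251, the NZO male was at 1.455 and the others between 0.5783 and 1. The NZO male also had the highest leukocyte, acinar and duct sums, and their part in its Adcy2 values was not tested.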

How the results depend on the processing

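No difference called in the report reversed its direction in the alternatives run, while contrasts that were not called could change sign, as that of WSB at Adcy2 68762552 did (-0.29 to 1.37). The 6 calls for strain fell to 1 with the mean signal of the peaks. The 7 calls of single strains were 21 with no centring, 11 for PWK, 8 for CAST and 2 for AJ. The median difference over all regions was then -0.80 for PWK and 0.77 for CAST, against 0.02 and -0.02 in the fit as given. With regions in at least 12 samples there were 13 calls of single strains. Missing peaks entered at 0 there, and the calls in PWK partly follow from that. Leaving out 1 sample gave 2 to 8 calls for strain, with 3 or fewer without the AJ male, either B6, CAST or WSB sample or the NOD female, and 3 to 15 calls of single strains, with 15 without the NZO female, 11 without the NZO male and 3 or 4 without either AJ, CAST, NOD or WSB sample, the B6 female or the PWK male. The tests of sex, strain class and CAST with PWK gave 0 calls throughout. The 157 regions were 67 with the stricter threshold (the upper part of each list, cut at its median −log10 p) and 75 with equal numbers of peaks, and the regions in all 16 samples went from 14 to 8 with the stricter threshold. The Adcy1 regions with a peak in the 14 other samples and in neither PWK sample went from 4 to 2 with the stricter threshold. Of the values of single regions, 446 kept their side of the threshold, 107 lost the call, 7 gained it and 2 counts moved.

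By region, the strain call of Adcy2 at 68762552 was lost without the WSB female (adjusted p = 0.0673), that of Adcy9 at 4315742 without either AJ (0.064 and 0.102), CAST (0.0618 and 0.0619) or WSB sample (0.0602 and 0.0668), and that of Adcy2 at 68773539 without either B6 (0.0703 and 0.084), CAST (0.0555 and 0.0564) or PWK sample (0.0716 and 0.0585) or the NOD female (0.0536). The calls of Adcy8 at 64917904 and of the Adcy9 promoter for strain were lost without most single samples, up to 0.129 without the WSB male and up to 0.274 without the AJ male. For AJ, the Adcy9 calls were lost without either AJ sample (0.142 and 0.298 in the intron, 0.0631 and 0.375 at the promoter). The B6 and PWK calls in Adcy2, the PWK call of the Adcy3 promoter and the AJ call in Adcy8 were each lost without at least 8 single samples, those of the strain named included. The Adcy3 promoter was called for strain without the NZO female (0.0126) or the NZO male (0.0245) and with no centring (0.00557). The causes were not tested. Females and males are matched through the strain term of the fit for sex, and the labels carry no replicate numbers for a further block. The depth of each sample, which was not used, limits what a missing peak says, and 2 samples per strain limit every strain mean.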

Other observations

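Further regions, chosen after their values were seen, had a peak in both sexes of some strains and in neither of others. An Adcy3 intron region (chr12:4179115-4179608) had peaks in both samples of 129 (0.52 and 0.45), AJ (0.29 and 0.31), B6 (0.48 and 0.59) and NZO (0.57 and 0.51) and in the WSB female (0.23), and none in CAST, NOD or PWK. An Adcy2 intron region (chr13:68939400-68939674) had peaks in both samples of B6 (0.21 and 0.25) and PWK (0.24 and 0.25) and in the WSB female (0.08). An Adcy9 intron region (chr16:4320797-4321260) was highest in B6 (1.01 and 1.00) and WSB (0.92 and 0.78), lowest in PWK (0.44 and 0.19) and CAST (0.30 and 0.38), and missing in the AJ male. An Adcy1 intron region (chr11:7152988-7153977) reached 1.29 in the NZO male and 0.30 in the NZO female, with at most 0.29 in the B6 male and the WSB samples and no peak elsewhere.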
